A study of Mus musculus with 4 samples.

Results

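The unfolded protein response genes described here were 10 genes picked by symbol for their role in endoplasmic reticulum (ER) stress, and all 10 were found among the 22863 genes of the deposited table. They comprised the sensors Ern1 and Atf6, the transcription factors Xbp1, Atf4 and Ddit3, the regulator Trib3, the chaperones Hspa5 and Hsp90b1, the disulphide isomerase Pdia4 and the degradation factor Herpud1. RNA-seq of the back of the eye of C3H mice (sclera, choroid, pigment epithelium and retina, with lens and front removed) compared 2 samples taken in objective day with 2 taken in subjective day. Both groups were collected at noon of the light schedule, at hour 6 of the day. The subjective day mice had spent the preceding 18 hours in the dark, as the Methods state (another passage gives a longer time), whereas the objective day mice had seen morning light and were then dark-adapted for 1 hour. Mice of both groups were of the melatonin-proficient C3H/f+/+ strain, which lacks the Pde6b mutation of other C3H mice, and their ages are not given in the sources used here. Each sample was a pool of the 4 eyes of a female and a male, which the Methods call a biological replicate, so that the spread between samples is between pools of animals. The comparison addresses whether light earlier in the day, at a matched clock time, changes the transcripts of the pathway.

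The ER is where secreted and membrane proteins fold, and rods pass a continuous supply of newly made membrane protein through it on the way to the outer segment. When unfolded protein accumulates, the chaperone Hspa5 (BiP) is drawn away from the sensors. IRE1, encoded by Ern1, then splices the Xbp1 mRNA, ATF6 is cut by Golgi proteases into a transcription factor, and PERK phosphorylates eIF2 alpha, which favours translation of Atf4. Splicing of Xbp1, cleavage of ATF6 and translation of Atf4 act after transcription, so a gene-level RNA value does not read them. The targets of these factors can be read at the RNA level, namely chaperones and degradation factors for the ATF6 and XBP1 branches, and Ddit3, Trib3 and amino acid genes for the ATF4 branch.

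Chaperone promoters carry the ER stress response element (ERSE), to which ATF6 binds with the factor NF-Y. Its letters, CCAAT and CCACG with 9 bases of any kind between them, were searched on both strands in RefSeq promoter windows of GRCm38.p6 that run from 250 bases before to 50 bases after each gene's start. Of 27025 genes with a window, 37 (0.137%) held an exact match. Among the 9 members with a window these were Hspa5 and Hsp90b1, the latter with a pair of matches, and among the 60 further pathway genes with a window there were 8. The 11 elements of these 10 genes are shown because the ERSE is one of the sequence features through which the pathway acts on its targets. Each line reads 5′ to 3′ on the strand of the gene with 5 bases on either side, and capitals mark the fixed letters of the element or of its reverse complement.
Hspa5, chr2:34772020-34772048, plus strand: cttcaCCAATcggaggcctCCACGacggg
Hsp90b1, chr10:86705528-86705556, minus strand: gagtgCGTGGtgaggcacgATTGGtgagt
Hsp90b1, chr10:86705633-86705661, minus strand: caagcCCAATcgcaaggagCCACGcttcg
Calr, chr8:84847070-84847098, minus strand: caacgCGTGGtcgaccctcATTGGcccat
Canx, chr11:50325795-50325823, minus strand: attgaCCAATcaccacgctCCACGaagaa
Pdia6, chr12:17266486-17266514, plus strand: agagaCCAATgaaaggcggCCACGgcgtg
Dnajc3, chr14:118937822-118937850, plus strand: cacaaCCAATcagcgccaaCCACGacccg
Creld2, chr15:88819515-88819543, plus strand: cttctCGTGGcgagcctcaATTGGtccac
Derl3, chr10:75893237-75893265, plus strand: tctacCGTGGgacttccccATTGGctagc
Ero1b, chr13:12565677-12565705, plus strand: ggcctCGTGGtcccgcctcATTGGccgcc
Syvn1, chr19:6046527-6046555, plus strand: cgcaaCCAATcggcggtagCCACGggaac
The element of Hspa5 starts 65 bases before the RefSeq start and lies within an exon that GENCODE annotates for the gene, from a start further upstream. A related element, ERSE-II, ATTGG and CCACG with 1 base between them, was found in 12 genes (0.0444%). Herpud1 was the only member among them, and its element starts 52 bases before the start.
Herpud1, chr8:94386372-94386392, plus strand: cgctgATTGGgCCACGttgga
The UPR element TGACGTGG was in none of the 9 member windows and in 0.714% of all genes, and the amino acid response letters TGATGNAA were in those of Herpud1 and Trib3 and in 4.51% of all genes. The match of Herpud1 starts 112 bases before the start, whereas that of Trib3 lies past the start. Atf6 was not among the RefSeq windows.

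The deposited values, called adjusted counts here, are gene counts brought by the authors to 1 library size. All 10 members were among the 17784 genes that reached a value of 10 in 2 or more samples, and log2(value + 1) was compared between the groups with limma. Folds are on that scale, as objective day over subjective day, and adjusted p-values are Benjamini-Hochberg values over all genes tested, read against a threshold of 0.05. For 1 gene alone the smallest two-sided p of an exact permutation test is 0.333 with 2 samples in each group, and significance therefore depends on the spread that limma estimates over many genes. The tissue labelled eye held the markers of its retina, with sums over the 4 bipolar cell markers between 34153 and 38239.9 in the 4 samples, and 5 markers of the retinal pigment epithelium summed to between 60744 and 73806, although 1 of them, Best1, was at 9.7 or less. Marker genes of other tissues moved with the groups or between samples. The summed value of 5 surface epithelium markers was 10407 and 10803 in subjective day against 2912 and 5403 in objective day, and 4 of the 4 tested were called lower. That of 4 blood markers was 1239 and 1404 in subjective day against 1943 and 2206 in objective day, with 1 of the 3 tested called higher. The summed value of 5 lens markers was 39047 and 5016 in subjective day samples 1 and 2 and 45790 and 11972 in objective day samples 1 and 2, with 0 of 5 called, so that samples numbered 1 held more lens transcripts in both groups. Among other markers 1 of 5 for fibroblasts and 1 of 4 for Müller glia were called lower. For rods, cones, bipolar cells, muscle, plasma cells and the 4 pigment epithelium markers tested, 0 were called. The 5 rod, 4 cone and 4 bipolar cell markers nevertheless all had log2 fold changes above 0. Their medians were 0.21, 0.15 and 0.15, beside 0.015 over all genes tested. Rpe65, a pigment epithelium gene outside that marker list, was called lower, by -0.52 on the log2 scale (limma adjusted p = 0.0286). It had 8708 and 7242.5 in subjective day against 5992 and 5121 in objective day. The call was lost once the trend of the values with transcript GC content (the GC trend) was removed in each sample. The change of Rpe65 then stayed below 0, at -0.26 (limma adjusted p = 0.347). The paper also reports less Rpe65 transcript in objective day by quantitative RT-PCR on a separate set of samples. None of these markers was at 0 in all samples. Their part in the results below was not tested, and in whole tissue fewer cells of a type and less RNA per cell cannot be told apart.

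No difference between objective and subjective day was called for the ER stress genes, and their mean values differed by 15.0% (Hspa5, lower) at most. None of the 10 members passed limma's threshold (smallest adjusted p = 0.0940, for Hspa5), where 8.51% of all genes tested did. Without adjustment, 2 of the 10 had a p under 0.05, Hspa5 with the lower value in objective day and Atf4 with the higher, compared with 25.4% of all genes. The median log2 fold change of the 10 was 0.030, beside 0.015 over all genes tested, with 4 below 0 and 6 above. It was 0.069 with the GC trend removed, ran from -0.0086 to 0.025 when a sample was left out, and was below 0 without subjective day sample 2. All of their 95% confidence intervals lay between -0.40 and 0.35 on the log2 scale. The samples of the groups did not overlap for 3 of the 10, namely Hspa5, Xbp1 and Atf4, compared with 56.1% of all genes.

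**Figure D1:**
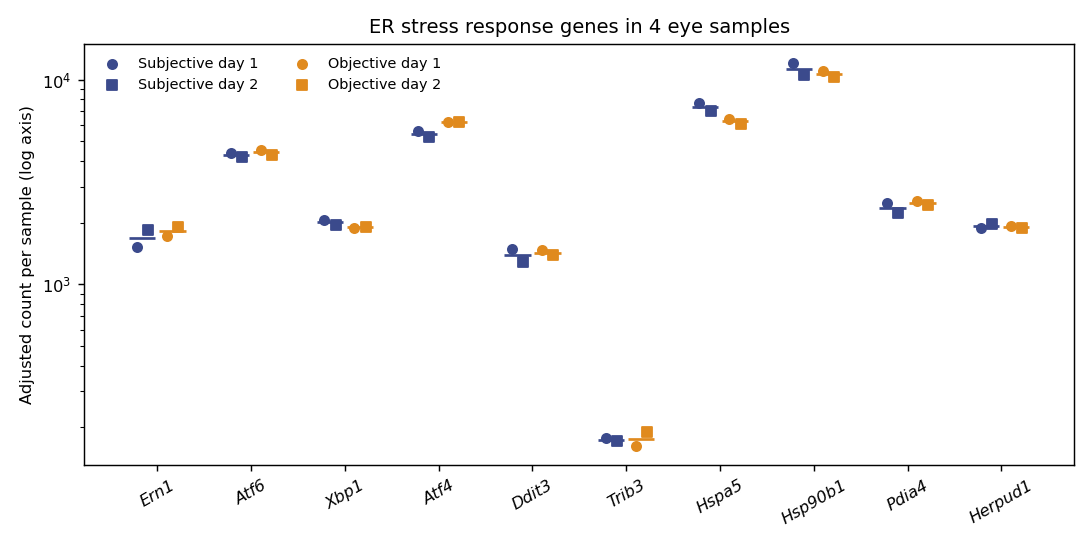
Adjusted count of each of the 10 genes in each of the 4 samples, on a log axis, with blue for subjective day, orange for objective day, circles for samples numbered 1, squares for samples numbered 2 and horizontal lines for the group means. Within a gene the 4 samples lie close together compared with the range between genes, from 162 for Trib3 to 12033 for Hsp90b1, and only Hspa5, Xbp1 and Atf4 show groups that do not overlap.

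The chaperones of the ER lumen are described first. Hspa5 (ENSMUSG00000026864), at 34771970 to 34777547 of chromosome 2 in GRCm38 (plus strand), encodes the lumenal HSP70 that binds unfolded chains and holds the sensors inactive. Its adjusted count was 7711 and 6988.5 in the subjective day samples and 6429 and 6064.5 in the objective day samples. Both objective day samples were below both subjective day samples, as for 28.2% of all genes. The mean of 6247 ± 258 (SD, n = 2) was 15.0% under that of 7350 ± 511 (SD, n = 2). On the log2 scale the change was -0.23 (standard error 0.072, 95% interval -0.40 to -0.065), with a limma adjusted p of 0.0940. Leaving out subjective day sample 2, the lower of its group, gave -0.30, and leaving out any of the other 3 samples gave -0.28 to -0.16. After the trend with transcript GC content was removed in each sample, the log2 fold change was -0.14 with a limma adjusted p of 0.436.

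Hsp90b1 (ENSMUSG00000020048), on the minus strand of chromosome 10 from 86690209 to 86705509, encodes GRP94, the HSP90 of the ER. It had adjusted counts of 12033 and 10556 in subjective day against 10985 and 10251 in objective day. The groups overlapped, and the samples of subjective day lay 0.19 apart on the log2 scale, more than the log2 fold change of -0.087 (95% interval -0.28 to 0.11). With the GC trend removed the log2 fold change turned to 0.18 (adjusted p = 0.412 in limma's test). The transcript shares 217 exonic bases with Gm15344 and Gm25745 on its strand and 415 with 1810014B01Rik on the opposite strand, and 318 of its 3173 distinct 50-base stretches, the read length, also occur in transcripts of other genes, so its count is uncertain. The strand setting of the counting is not given in the sources used here.

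Pdia4 (ENSMUSG00000025823; chromosome 6, minus strand, 47796141 to 47813430) encodes ERp72, which forms and rearranges disulphide bonds. Its adjusted counts were 2507 and 2232 in subjective day against 2545 and 2436 in objective day, which overlap. The log2 fold change of Pdia4 was 0.074 (95% interval -0.10 to 0.25). Herpud1 (ENSMUSG00000031770), at 94386438 to 94395377 of chromosome 8 (plus strand), encodes the membrane protein HERP that takes part in ER-associated degradation. It had 1892 and 1971 in subjective day against 1920 and 1876 in objective day, again with overlap, and a log2 fold change of -0.025 (95% interval -0.17 to 0.12). Of the 3 members whose promoter elements are printed above, Hspa5 had groups that did not overlap, and Hsp90b1 and Herpud1 had groups that did. Among all genes tested, 56.1% had groups that did not overlap.

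The sensors and the factor that IRE1 activates were measured next. Ern1 (ENSMUSG00000020715; chromosome 11, minus strand, 106394650 to 106487852) had adjusted counts of 1528 and 1833 in subjective day against 1729.8 and 1906 in objective day. Subjective day sample 1 was the lowest of the 4, and the groups overlapped. The gap of 0.26 on the log2 scale between the samples of subjective day exceeded the log2 fold change of 0.12 (95% interval -0.11 to 0.35). Atf6 (ENSMUSG00000026663), on the minus strand of chromosome 1 from 170704674 to 170867771, had 4365 and 4198 in subjective day against 4547 and 4285 in objective day. Its groups overlapped as well, with a log2 fold change of 0.044 (95% interval -0.10 to 0.19). That of Atf6 was 0.13 with the GC trend removed, and ran from 0.0015 to 0.087 when a sample was left out. Xbp1 (ENSMUSG00000020484; chromosome 11, plus strand, 5520659 to 5525893) had 2061 and 1955 in subjective day against 1893 and 1901 in objective day. Both objective day samples of Xbp1 lay below both subjective day samples, as for 28.2% of all genes, but the log2 fold change of -0.082 had an interval from -0.23 to 0.064 and a limma adjusted p of 0.457. It was -0.18 with the GC trend removed (limma adjusted p = 0.190), and ran from -0.12 to -0.043 when a sample was left out. Spliced and unspliced Xbp1 are counted together in a gene-level value.

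Atf4 (ENSMUSG00000042406), at 80255184 to 80257541 of chromosome 15 (plus strand), encodes the factor whose translation is favoured when eIF2 alpha is phosphorylated. Its adjusted count was 5599.8 and 5233 in subjective day against 6207 and 6189 in objective day. Both objective day samples were above both subjective day samples, as for 27.9% of all genes, and the mean was 14.4% higher. The log2 fold change was 0.20 (standard error 0.062, 95% interval 0.050 to 0.34) with a limma adjusted p of 0.103. Without subjective day sample 1 it was 0.24, and without any of the other 3 samples it was 0.15 to 0.20. With the GC trend removed it was 0.075 (limma adjusted p = 0.581).

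Ddit3 and Trib3 lie downstream of ATF4. Ddit3 (ENSMUSG00000025408; chromosome 10, plus strand, 127290774 to 127296288) encodes CHOP, a factor tied to cell death under prolonged stress. It had adjusted counts of 1487 and 1287 in subjective day against 1463.5 and 1386 in objective day. Both objective day samples of Ddit3 lay inside the range of the subjective day samples, and the log2 fold change was 0.042 (95% interval -0.16 to 0.24). Ddit3 shares 105 exonic bases with a second gene model of the same name on its strand and 81 with Gm4189 and Mars on the opposite strand, so its count is uncertain. Trib3 (ENSMUSG00000032715), on the minus strand of chromosome 2 from 152337422 to 152344032, encodes a pseudokinase that curbs ATF4 and AKT signalling. It was the member with the lowest value, at 177 and 171 in subjective day against 162 and 190.4 in objective day. Here the objective day samples lay on either side of both subjective day samples, and the log2 fold change of 0.018 carried the widest interval of the 10 (-0.31 to 0.34).

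**Figure D2:**
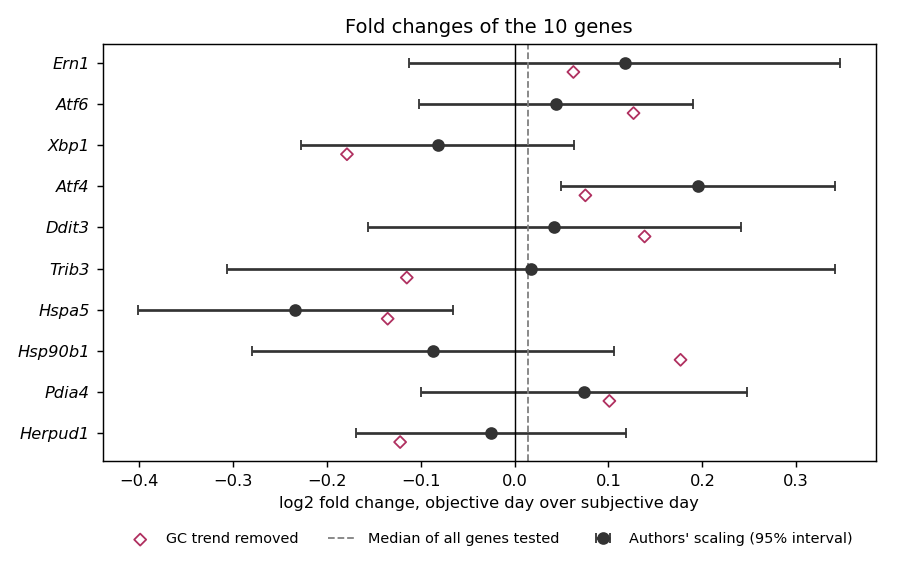
Log2 fold change of each of the 10 genes, objective day over subjective day, as black points with the 95% interval from limma, and as open diamonds after removal of the trend with GC content. The intervals of Hspa5 (-0.40 to -0.065) and Atf4 (0.050 to 0.34) exclude 0 before adjustment for the number of genes, and the diamonds of Hsp90b1 and Trib3 lie on the other side of 0 from their points.

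Levels were compared between genes per kilobase of the longest GENCODE transcript. Hsp90b1 had the highest mean, 3400 adjusted counts per kilobase (3182 to 3735 over the 4 samples), at the 97.9th percentile of the genes tested. Atf4 followed at 2876, then Hspa5 at 1851 and Ddit3 at 1451, and the sample ranges of these 4 genes did not overlap. Pdia4, Herpud1 and Xbp1 formed a group of neighbours at 1013, 981 and 917 whose ranges overlapped from each to the next. The sensors were lower, with 600.2 for Atf6 and 252 for Ern1, at the 79.5th and 57.9th percentiles. Trib3 was the lowest at 86.4, at the 35.5th percentile. The order depends on the annotated length, since Atf6 and Ern1 have long transcripts of 7246 and 6946 bases. The longest transcript of Ddit3 has 969 bases, whereas its annotated exons cover 1713. The counts of Hsp90b1 and Ddit3 are also uncertain because of shared exonic bases, and so are their places in the order.

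To see the members beside the rest of their pathway, 71 further genes of the response were grouped by role, of which 69 could be tested. The genes that changed, 6 in number (8.70%, where 8.51% of all genes tested were called), were all lower in objective day, and 0 were called higher, beside 7.45% and 1.06% of all genes in those directions. They were Dnajb9, Erlec1, Ero1a, Cebpg, Mbtps2 and Pdia3. The median log2 fold change of the 69 was 0.065, with 40 genes above 0 and 29 below. That median was 0.033 with the GC trend removed and ran from 0.0026 without subjective day sample 2 to 0.10 without subjective day sample 1, with 0.027 without objective day sample 1. With the GC trend removed, 0 of the 69 were called, compared with 1.07% of all genes, and the smallest adjusted p among them was 0.0681 in limma's test. With a variance prior that does not follow the mean, 0 of the 6 kept their call, with limma adjusted p-values from 0.126 to 0.193, and 0 of all 17784 genes were called. The count was 4 when either objective day sample was left out (4.4% and 3.85% of all genes were then called) and 18 without subjective day sample 1, of which 8 were lower (15.8% of all genes).

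Among 18 genes of lumenal folding, 2 were called lower (11.1%, beside 7.45% of all genes), 0 were called higher, and the median log2 fold change was 0.16 with 13 above 0, and 0.058 with the GC trend removed. Ero1a, the oxidase that passes electrons from protein disulphide isomerases to oxygen, had adjusted counts of 1521 and 1678 in subjective day against 1081.5 and 1075 in objective day. It fell by 0.57 on the log2 scale (standard error 0.073, adjusted p = 0.00617 in limma's test), with the groups well apart. Pdia3, the isomerase ERp57 that acts on glycoproteins, had 5257 and 4891 in subjective day against 4233 and 3857 in objective day. Its fall of -0.33 had a limma adjusted p of 0.0344, and the call was lost without either objective day sample. Calr and Canx, the lectin chaperones with which ERp57 works, had the highest values per kilobase of this group, and neither passed the threshold. Calr had a log2 fold change of 0.15 (95% interval -0.067 to 0.38) and Canx of -0.20 (95% interval -0.38 to -0.022, limma adjusted p = 0.154). Calr was at 0.28 without subjective day sample 1 and at 0.033 without subjective day sample 2.

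Among 18 genes of degradation and translocation, 2 were called lower (11.1%, beside 7.45% of all genes) and 0 higher, with a median of -0.0073, and of -0.037 with the GC trend removed. Dnajb9 encodes ERdj4, a co-chaperone of BiP that IRE1 and XBP1 are known to induce, and it had the largest change of the pathway genes. Its adjusted counts were 811 and 906 in subjective day against 543 and 428 in objective day. No objective day sample reached the lowest subjective day sample, and the log2 fold change was -0.83 with a standard error of 0.12 and a limma adjusted p of 0.00981. Erlec1, a lectin that recognises glycoproteins bound for degradation, had 2331 and 2326 in subjective day against 1509 and 1404 in objective day. It fell by 0.68 on the log2 scale (standard error 0.065, limma adjusted p = 0.00559). Os9, the partner lectin of Erlec1 in this process and among the most abundant of the group per kilobase, had a log2 fold change of 0.25, which did not pass the threshold. The value was 0.37 without subjective day sample 1, 0.13 without subjective day sample 2 and 0.12 with the GC trend removed.

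In the ATF4 branch, 19 of 20 targets could be tested, and 1 was called lower (5.26%, beside 7.45% of all genes) and 0 higher. Cebpg, which encodes a C/EBP factor that pairs with ATF4, had 1035.5 and 1024 in subjective day against 732 and 736 in objective day. Samples of each group lay within 0.016 of each other on the log2 scale, against a fold change of -0.49 (limma adjusted p = 0.00813). Slc3a2, a chain of amino acid transporters, and Ddit4, an inhibitor of mTORC1, were the most abundant of the branch per kilobase, at log2 fold changes of 0.17 and 0.23 with limma adjusted p-values of 0.201 and 0.153. They were at 0.25 and 0.32 without subjective day sample 1, and at 0.097 and 0.13 without subjective day sample 2. With the GC trend removed, Slc3a2 was at 0.072 and Ddit4 at 0.094. Fgf21 was at 4.3 or less in every sample and was not tested. Of 9 sensors, kinases and processing enzymes, Ern2 was not tested for low values, and 1 of the other 8 was called lower (12.5%, beside 7.45% of all genes), with 0 higher. That gene was Mbtps2, the site-2 protease of the Golgi that completes the cleavage of ATF6. It had 736 and 832 in subjective day against 605 and 609 in objective day, a log2 fold change of -0.37 (limma adjusted p = 0.0460), and the call was lost without either objective day sample or without subjective day sample 2. Mbtps1, the site-1 protease that cuts before it, had a log2 fold change of 0.098, and Atf6b, a relative of Atf6, of 0.12, neither of them past the threshold. Of 6 genes of the cell death arm 0 were called, with 1 lower and 1 higher at an unadjusted p under 0.05 in limma's test, beside 15.9% lower and 9.51% higher among all genes. The most abundant of these per kilobase, Bax and Bak1, the pore-forming proteins of apoptosis, had log2 fold changes of 0.065 and 0.23. With the GC trend removed, Bax was at -0.094 and Bak1 at 0.10.

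**Figure D3:**
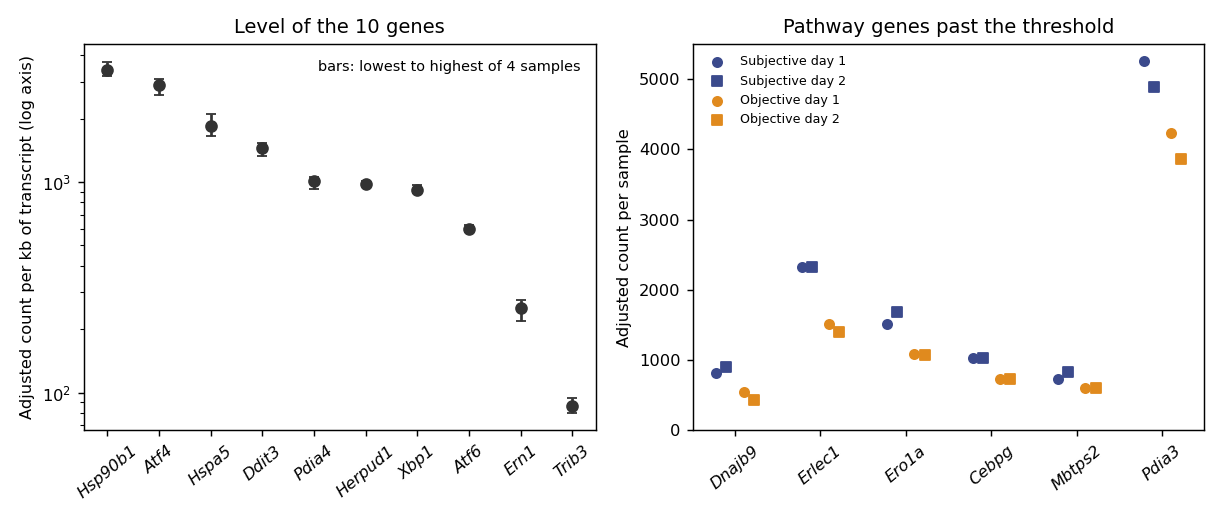
Left, mean adjusted count per kilobase of the longest transcript for each of the 10 genes on a log axis, with bars from the lowest to the highest of the 4 samples, from 3400 for Hsp90b1 to 86.4 for Trib3. Right, adjusted counts in each sample of the 6 pathway genes past the threshold, with all objective day samples (orange) below all subjective day samples (blue) of the same gene.

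The 6 genes called had longest transcripts of low GC content, 46.9% or less, where the median of all genes tested was 49.8%. Of all genes called lower, 1247 lay below that median and 63 above it. Across the 79 members and pathway genes tested, the log2 fold change followed GC content with a Spearman correlation of 0.73, and across the 17536 genes of known GC content with one of 0.58. Genes are not independent replicates, and all points share the same 4 libraries. Of the 36 members and pathway genes below the median GC content 27 had a log2 fold change below 0, compared with 6 of the 43 above it. Among all genes the corresponding counts were 6327 of 8768 and 1984 of 8768. With the trend removed in each sample the log2 fold changes were -0.48 for Dnajb9, -0.32 for Erlec1, -0.29 for Cebpg, -0.28 for both Ero1a and Pdia3, and 0.016 for Mbtps2, whose direction turned. What part GC content itself had in the differences was not tested, and such a correction also takes away any real difference that follows GC content.

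**Figure D4:**
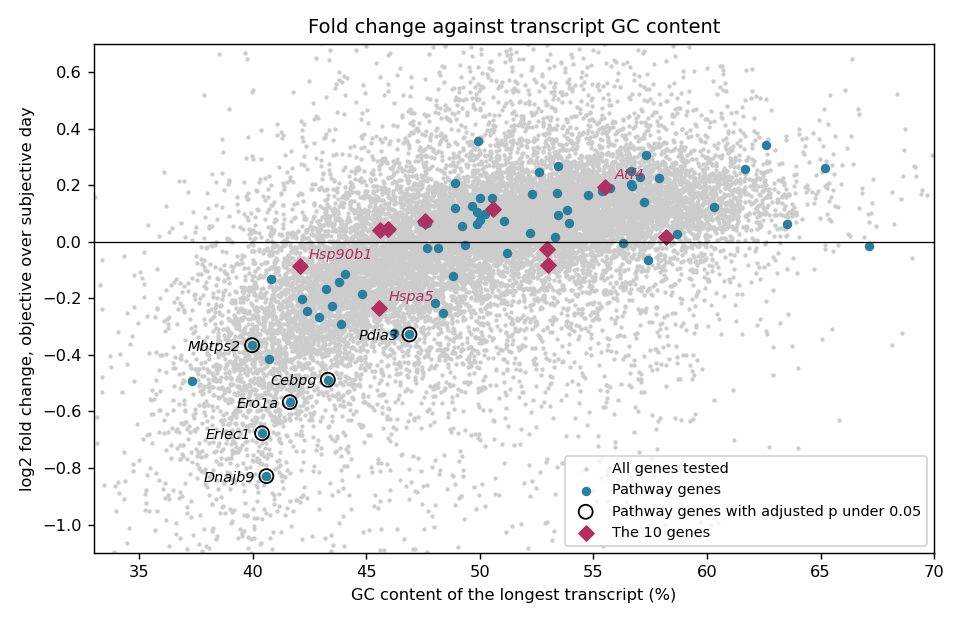
Log2 fold change, objective over subjective day, against the GC content of the longest transcript in percent, for all genes tested (grey), the 69 pathway genes (blue) and the 10 members (red diamonds), with rings around the 6 pathway genes past the threshold. The ringed genes lie at 46.9% GC or less, and 6327 of the 8768 genes below the median GC content lie below 0. Beyond the plotted range are 451 of the genes with known GC content.

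Of the 10 members and pathway genes with the element, 5 had log2 fold changes below 0 and 5 above, from -0.23 for Hspa5 to 0.31 for Derl3, and 0 were called, beside 8.51% of all genes. With the GC trend removed, 9 of these 10 were above 0 and 1, Hspa5, was below. Across all genes with the element, 18 were tested, and their median log2 fold change was 0.042, with 6 below 0 and 12 above. A single one, Alg12, was called, as higher (1.06% of all genes were), and it was not called after removal of the GC trend. Among the 9 tested genes with an ERSE-II, Herpud1 had a log2 fold change of -0.025, the median was -0.018, and 3 were called, all as lower (Lgalsl, Lrif1 and Rbm39), beside 7.45% of all genes. None of these 3 was called after removal of the GC trend, beside 1.07% of all genes.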

How the data were processed

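RNA with poly-A tails from 4 eye samples was sequenced on 1 lane with reads of 50 bases. Per the labels and the Methods, the authors aligned with TopHat2 2.0.9 and Bowtie2 2.1.0 to Ensembl release 72, counted with HTSeq and compared with edgeR. The deposited values are a signal per gene, gene counts the authors adjusted to a common library size, whose totals (33278417 to 35236783) are therefore not the depth. The depth of each sample is not given by these values. The deposited log2 fold change, log2 CPM and p-value columns hold the authors' comparison and were not used.

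The log2(value + 1) of genes with a value of 10 or more in 2 samples was fitted in R 4.3.3 by limma 3.58.1, with a prior on the variance set by mean expression, no block and the scaling of the authors. All 131 genes of the lists were matched, 4 by an older symbol. GC content and length come from the longest transcript in GENCODE M21 (GRCm38, known for 98.6% of the genes tested), and the GC trend was removed by local regression with a span of 0.3. The method was tried on simulated counts with 2-fold changes in 200 genes, a dispersion of 0.01, and no GC trend or replicate structure. It recovered 77% of the changed genes there and called 2 unchanged ones. Changes as small as those of the members were not simulated. Members and lists were chosen with earlier results of these data known. Named genes are all members, every pathway gene called, and the 2 most abundant per kilobase of each role, except 1 gene that is not reported here; Alg12, Rpe65, Lgalsl, Lrif1, Rbm39, Fgf21, Ern2 and the further genes with an ERSE were named after their values were seen. Figures were drawn with matplotlib 3.10.9.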

Additional observations from a re-analysis of the deposited data

How the results depend on the processing

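The counts of members (0) and of pathway genes (6) past the threshold were the same with a pseudocount of 0.5 or 10, without a filter, with a filter of 1 CPM, and with scaling by trimmed means or by a median of ratios. With a variance prior that does not follow the mean, 0 pathway genes and 0 of all genes were called, and with the GC trend removed 0 pathway genes and 1.07% of all genes were called, the cause of which was not tested. The replicate numbers are shared by the groups, but nothing in the labels pairs the samples, and deviations of same-numbered samples had a correlation of 0.319. With the replicate number as a block, 2 members (Atf4 higher, Hspa5 lower) and 24 pathway genes, 13 of them lower, were called. Of all genes 20.3% were called then, 13.1% lower and 7.21% higher. By role, the calls were 8 for lumenal folding (5 higher), 9 for degradation and translocation (2 higher) and 6 for the ATF4 branch (4 higher). Sensors, kinases and processing enzymes had 1 (0 higher) and cell death 0. With the block and GC removal together, 0 members and 6 pathway genes were called (6.41% of all genes). Leaving out each sample in turn gave 0 to 1 members called and 4 to 18 pathway genes, with 3.85% to 15.8% of all genes called, where the lone sample of a group is assumed to vary like the other pair. Without subjective day sample 1 the member called was Atf4, and without subjective day sample 2 it was Hspa5.

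Directions turned with the GC trend removed for 2 of the 10 members and 15 of the 69 pathway genes tested. With and without the block, they included Trib3 (-0.11), Hsp90b1 (0.18), Mbtps2 (0.016), Atf6b (-0.018), Canx (0.054), Dnajc3 (0.035), Ero1b (0.049) and Bax (-0.094), on the log2 scale. Members that kept their direction included Ern1 (0.063), Ddit3 (0.14), Pdia4 (0.10) and Herpud1 (-0.12), with the GC trend removed. Over the samples left out, the log2 fold change ran from -0.014 to 0.25 for Ern1, from -0.062 to 0.15 for Ddit3, from -0.096 to 0.13 for Trib3, from -0.18 to 0.0076 for Hsp90b1, from -0.010 to 0.16 for Pdia4, from -0.055 to 0.0042 for Herpud1 and from -0.084 to 0.21 for Bax, so the direction of these 7 genes is not settled by 4 samples. The depth is not given by the adjusted values, and the precision of a single gene rests on 2 samples in each group.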
